A study of Mus musculus with 10 samples.

Results

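The genes described here are 37 markers of B and T lymphocytes, of 55536 genes counted in mouse bladder. They were chosen by name, with earlier results of these data known, so counts of them set beside all genes are descriptions and not tests. The list holds 15 genes of the B lineage and 22 genes of T cells and cytotoxic lymphocytes. The antibody joining chain is its only gene of an antibody subunit. RNA-seq was performed on bladder tissue of C57BL/6 mice in 10 libraries, 4 from wild type (WT), 3 from OMD-/- and 3 from PRELP-/- mice. OMD (osteomodulin) and PRELP belong to the small leucine-rich proteoglycans, secreted proteins of the extracellular matrix, and the study asked what their loss does to the bladder. Both lines are constitutive knockouts in which the coding exons were replaced by a β-galactosidase gene, so the gene is missing in every cell of the mouse, lymphocytes included. Age and sex of the mice are not given in the labels, which call the source bladder tissue, whereas the study describes isolated epithelia. Nothing in the labels states that each library came from a separate mouse, so all tests measure the spread between libraries. The study's text gives other group sizes than the labels, and the labels were followed.

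B cells recognise antigen through a surface antibody that signals through the paired chains CD79A and CD79B, and those that become plasma cells secrete antibody, in part as polymers held together by the joining chain. T cells recognise antigen through a receptor whose chains are anchored in the CD3 complex, with CD4 or CD8 as coreceptor and the kinases LCK and ZAP70 as first relay. In a healthy bladder lymphocytes are a small minority of the cells. In RNA of a whole tissue, more cells of a type and more RNA per cell cannot be told apart.

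The regulatory sequence just before a gene is shown for a B cell gene, a plasma cell gene and a T cell gene that the results turn on. RefSeq windows of GRCm38.p6, from 250 bases before to 50 bases after the annotated start, were found for 26 of the 37 genes. Capitals mark CAGGTG or its complement CACCTG, the E-box read by proteins such as E2A, and AGGAAG or CTTCCT, an Ets core. Cd79a lies at chr7:24897247-24897546 (plus strand), Jchain at chr5:88527848-88528147 (minus) and Cd3e at chr9:45009562-45009861 (minus).
Cd79a: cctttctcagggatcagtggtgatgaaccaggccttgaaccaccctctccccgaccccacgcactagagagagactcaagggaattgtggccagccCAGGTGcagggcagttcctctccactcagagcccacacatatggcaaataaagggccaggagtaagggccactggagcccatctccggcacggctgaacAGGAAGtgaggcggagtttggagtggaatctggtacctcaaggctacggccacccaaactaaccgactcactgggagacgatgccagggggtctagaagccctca
Jchain: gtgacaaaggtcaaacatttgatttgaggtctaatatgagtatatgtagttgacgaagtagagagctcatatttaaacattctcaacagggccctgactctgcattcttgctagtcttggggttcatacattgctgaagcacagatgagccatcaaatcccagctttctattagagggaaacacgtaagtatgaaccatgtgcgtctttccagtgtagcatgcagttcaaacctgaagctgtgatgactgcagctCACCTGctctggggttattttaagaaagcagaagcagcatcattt
Cd3e: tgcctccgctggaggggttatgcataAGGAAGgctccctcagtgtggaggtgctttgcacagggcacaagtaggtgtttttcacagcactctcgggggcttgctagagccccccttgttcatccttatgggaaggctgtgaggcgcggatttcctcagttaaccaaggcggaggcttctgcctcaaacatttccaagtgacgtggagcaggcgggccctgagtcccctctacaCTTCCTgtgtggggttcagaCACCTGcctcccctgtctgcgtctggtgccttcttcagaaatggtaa

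Some genes had several windows, with 32 over the 26 genes, and a gene was counted where any of its windows held a match. The E-box was in 16 of the 26 genes (61.5%) on either strand, against 22.6% of all 27025 genes with such windows. The Ets core was in 15 (57.7%), against 38.4%. The RUNX letters TGTGGT were in 10 (38.5%, against 18.9%), 7 of the 15 T cell or cytotoxic genes and 3 of the 11 B lineage genes with a window. The EBF1 core motif, read by a factor that sets up the B lineage, was in Cd22 alone (3.85%, against 1.06%). The start that RefSeq gives for Cd22 lies 1314 bases inside the gene as GENCODE gives it, and that of Cd79a 116 bases inside, so the windows need not be the promoters in use. The octamer ATGCAAAT was in 0 of the 26 genes (1.97% of all genes), the GC box GGGCGG in 8 (30.8%, against 38.2%) and TATAAA in 3 (11.5%, against 15.7%). All motifs were read on both strands, and these are matches of letters, not sites shown to be bound.

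The libraries held from 20391437 to 46269079 counts, and 3 counts, taken as the limit of detection, correspond to 0.0598 to 0.170 CPM (counts rescaled to a common library size, with TMM factors). Between 29 and 37 of the lymphocyte genes were above that limit in a library, with the lowest number in PRELP-/- replicate 1. Prelp was at 214 to 317 CPM in WT, 771 to 825 CPM in OMD-/- and 1.84 to 4.20 CPM in PRELP-/-, while Omd had 0 counts in all 3 OMD-/- libraries but also only 0 to 12 counts in WT. Several libraries stood apart in ways that touch the lymphocyte genes. PRELP-/- replicate 1 was far from every other library (median per-gene chi-square of at least 17.9, where counting noise alone gives 0.455), and its haemoglobin and erythroid markers summed to 473 CPM against 35.4 to 69.6 CPM elsewhere. OMD-/- replicates 2 and 3 were close to each other (1.11), as were PRELP-/- replicates 2 and 3 (0.995) and WT replicates 3 and 4 (1.37), and all 3 values were above counting noise. They were kept as separate samples as the labels list them, which does not show that they came from separate mice. OMD-/- replicate 1 lay nearer to PRELP-/- replicate 2 (1.69) than to OMD-/- replicates 2 (3.60) and 3 (3.37). Genes of the Y chromosome read 194 and 166 CPM in WT replicates 1 and 2, 120 CPM in PRELP-/- replicate 1, 18.6 to 19.1 CPM in OMD-/- replicate 1 and PRELP-/- replicates 2 and 3, and 0.913 to 1.46 CPM in the other 4, so the groups differed in this too. The levels of 18.6 to 19.1 CPM lie between those of the other libraries, and what they stand for was not tested. Urothelium markers summed to 9927 to 24420 CPM, fibroblast markers to 6272 to 16268 CPM and smooth muscle markers to 185 to 1134 CPM, so the libraries held RNA of the bladder wall as well as of its epithelium.

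In the OMD-/- bladder, 20 of the 37 lymphocyte genes were higher than in WT and 0 were lower, by edgeR's quasi-likelihood test with adjusted p under 0.05 over all genes. The B lineage moved further: 11 of its 13 tested genes were higher, with a median log2 fold change of 3.41, against 9 of 22 T cell and cytotoxic genes with a median of 0.87. Ms4a1, Pax5, Mzb1, Tnfrsf17 and Foxp3 met the filter on low counts only through the OMD-/- libraries, and without them 8 of 9 B lineage genes passed (median 2.74), as did 9 of 21 T cell and cytotoxic genes (median 0.92). Among all genes tested in this comparison 14.3% were higher and 15.1% lower, and their median log2 fold change was -0.000200. The height of the rise came from OMD-/- replicates 2 and 3: with both left out, an alternative chosen after seeing the data, 0 of 35 genes passed (5.66% of all tested genes did, in either direction) and the median fell from 1.36 to 0.21. Replicate 1 still exceeded all 4 WT libraries in 11 of 15 B lineage genes (32.4% of all tested genes did so), but in only 6 of 22 T cell genes, where 8 were below all WT (29.4% of all tested genes were). Replicate 2 exceeded all WT libraries in 14 of 15 B lineage and 19 of 22 T cell genes (30.9% of all tested genes), replicate 3 in 15 and 18 (31.3%), and neither was below all WT in any of the 37 (31.4% and 32.6%). The median over the B lineage genes was 2.24, 14.7 and 15.1 times the WT mean in replicates 1 to 3, and over the T cell genes 1.0, 2.51 and 2.31 times. In PRELP-/-, 0 of 32 tested genes passed against WT, while 7.29% of all tested genes did, 1.40% higher and 5.89% lower.

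**Figure D1:**
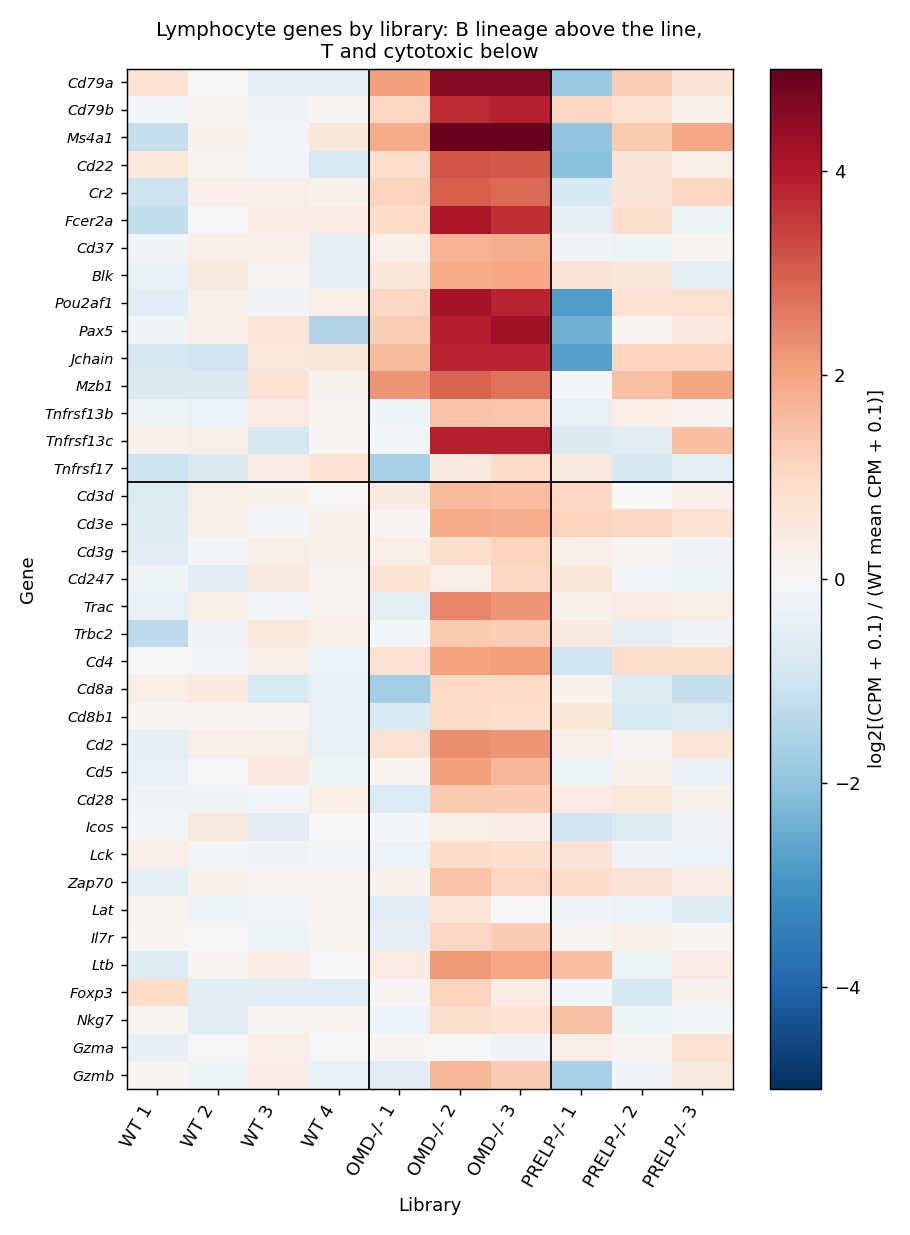
Level of each of the 37 genes (rows) in each of the 10 libraries (columns), as log2 of CPM plus 0.1 over the WT mean CPM plus 0.1; red is above and blue below the WT mean, and vertical lines separate WT, OMD-/- and PRELP-/-. The B lineage rows above the horizontal line are red in all but 3 genes of OMD-/- replicate 1 and darkest in replicates 2 and 3, and PRELP-/- replicate 1 has 7 B lineage genes below all WT libraries.

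The antigen receptor and surface proteins of B cells formed the first group. Cd79a, the signalling chain of the B cell receptor, was at 1.12, 0.655, 0.443 and 0.442 CPM in WT replicates 1 to 4, at 3.06, 18.0 and 18.3 CPM in OMD-/- replicates 1 to 3, and at 0.114, 1.68 and 1.10 CPM in PRELP-/- replicates 1 to 3. Cd79b, its partner chain, was at 0.897, 1.05, 0.841 and 0.973 CPM in WT, at 2.03, 13.8 and 14.7 CPM in OMD-/-, and at 2.04, 1.60 and 1.06 CPM in PRELP-/-. Every OMD-/- library was above every WT library for both chains, and OMD-/- replicates 2 and 3 were far above replicate 1. The fitted log2 fold changes of OMD-/- against WT were 4.21 ± 0.65 (SE, adjusted p = 0.00257, edgeR) for Cd79a and 3.44 ± 0.59 (adjusted p = 0.00322) for Cd79b. PRELP-/- replicate 1 held the lowest Cd79a of the 10 libraries together with a Cd79b above all WT libraries. That Cd79a level was 2 counts, below the library's limit of 0.170 CPM. The CPM ratio of the 2 chains, which work as a pair, was 0.0556 there, resting on those few counts, and 0.455 to 1.51 in the other 9 libraries.

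Ms4a1, which encodes the B cell surface protein CD20, was at 0.0797, 0.349, 0.266 and 0.487 CPM in WT, at 1.32, 12.1 and 12.1 CPM in OMD-/-, and at 0.00, 0.881 and 1.42 CPM in PRELP-/-. It had the largest fitted fold change of the 37 genes in OMD-/- (log2 4.99 ± 0.85, adjusted p = 0.00402, edgeR), on WT levels near the limit of detection. Cd22, an inhibitory coreceptor of B cells, was at 1.85, 1.31, 1.19 and 0.708 CPM in WT, at 2.45, 11.9 and 11.5 CPM in OMD-/-, and at 0.227, 2.04 and 1.56 CPM in PRELP-/-. Cr2, the complement receptor of mature B cells and of follicular dendritic cells, was at 0.319, 0.916, 0.929 and 0.885 CPM in WT, at 1.79, 6.74 and 6.12 CPM in OMD-/-, and at 0.397, 1.24 and 1.65 CPM in PRELP-/-. Both rose in OMD-/-, by 2.73 ± 0.52 (log2, SE, adjusted p = 0.00473, edgeR) for Cd22 and 2.74 ± 0.50 (adjusted p = 0.00296) for Cr2, with no overlap of the groups.

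Cd37, a tetraspanin abundant on B cells, was at 3.45, 4.63, 4.60 and 2.70 CPM in WT, at 4.62, 13.1 and 13.8 CPM in OMD-/-, and at 3.46, 3.20 and 4.09 CPM in PRELP-/-. It was the only tested gene of this group whose OMD-/- libraries overlapped WT, since replicate 1 lay just under the highest WT library. Its fold change of 1.46 ± 0.35 (log2, SE, adjusted p = 0.0115, edgeR) was the smallest of the 11 B lineage genes that passed, and its exons share 13 bases with Tead2 on the opposite strand. Fcer2a, the low-affinity receptor for IgE of mature B cells, was left untested by the filter on low counts. It was at 0.0199, 0.175, 0.266 and 0.265 CPM in WT, at 0.424, 4.62 and 3.47 CPM in OMD-/- and at 0.114, 0.400 and 0.138 CPM in PRELP-/-, so all OMD-/- libraries were above all WT libraries.

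The kinase and the transcription factors of B cells followed the surface proteins. Blk, a Src family kinase downstream of the B cell receptor, was at 0.717, 1.27, 1.02 and 0.664 CPM in WT, at 1.41, 3.56 and 3.79 CPM in OMD-/-, and at 1.48, 1.40 and 0.643 CPM in PRELP-/-. Pou2af1, a coactivator of antibody genes, was at 0.379, 0.698, 0.531 and 0.752 CPM in WT, at 1.32, 12.4 and 9.63 CPM in OMD-/-, and at 0.00, 1.04 and 1.06 CPM in PRELP-/-. Pax5, which fixes B cell identity and is switched off in plasma cells, was at 0.379, 0.524, 0.708 and 0.0885 CPM in WT, at 1.13, 7.58 and 9.45 CPM in OMD-/-, and at 0.00, 0.441 and 0.643 CPM in PRELP-/-. All OMD-/- libraries exceeded all WT libraries for the 3 genes, and PRELP-/- replicate 1 had 0 counts of Ms4a1, Pou2af1 and Pax5, below its limit of 0.170 CPM. The log2 fold changes in OMD-/- were 1.69 ± 0.38 (SE, adjusted p = 0.00780, edgeR) for Blk, 3.77 ± 0.67 (adjusted p = 0.00396) for Pou2af1 and 3.84 ± 0.73 (adjusted p = 0.00510) for Pax5.

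**Figure D2:**
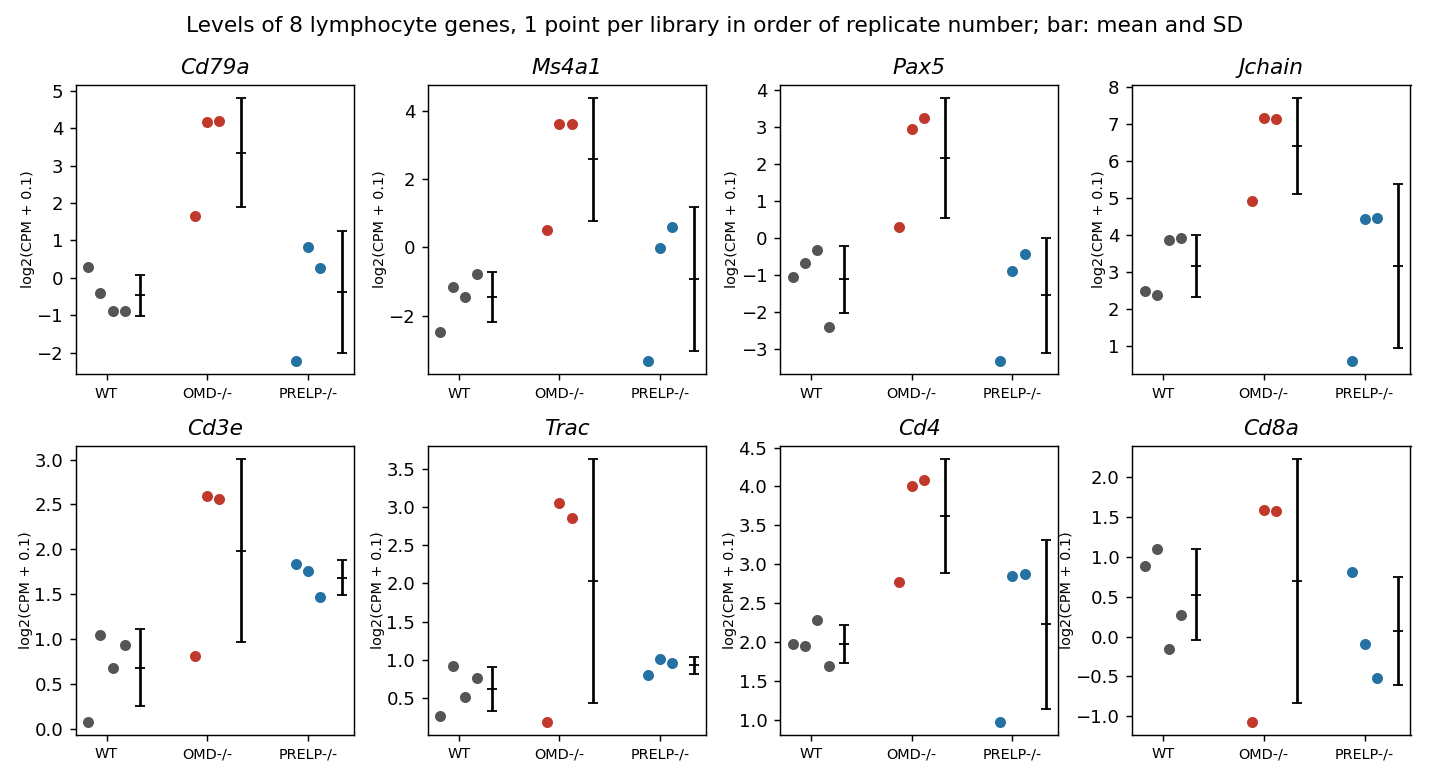
Levels of 8 lymphocyte genes, as log2 of CPM plus 0.1, with 1 point per library in order of replicate number for WT (grey), OMD-/- (red) and PRELP-/- (blue), and the mean and SD of each group beside its points. In the upper row, of B lineage genes, all 3 OMD-/- points lie above all WT points, while in the lower row, of T cell genes, only Cd4 shows this.

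Genes of antibody secretion and of the receptors that keep B and plasma cells alive were split. Jchain, which joins IgA and IgM into polymers, was the most abundant of the 37 genes per kilobase of exon in WT (3.97 CPM per kb). It was at 5.52, 5.11, 14.4 and 14.9 CPM in WT, at 30.0, 143 and 140 CPM in OMD-/-, and at 1.42, 21.3 and 21.8 CPM in PRELP-/-. It rose in OMD-/- by 3.41 ± 0.73 (log2, SE, adjusted p = 0.0203, edgeR), and in PRELP-/- replicates 2 and 3 exceeded all WT libraries while replicate 1 was below them all. Mzb1, a chaperone for antibody assembly, was at 0.00, 0.00, 0.177 and 0.0885 CPM in WT, at 0.659, 1.19 and 1.0 CPM in OMD-/-, and at 0.0568, 0.360 and 0.551 CPM in PRELP-/-. Its fitted rise of 4.02 ± 0.79 (log2, SE, adjusted p = 0.00384, edgeR) depends on the prior count, since WT was at or near 0, and it entered the fit through the OMD-/- libraries. The exons of Mzb1 share 695 of 1215 bases with SPATA24 on the same strand, which was at 0 CPM, so reads there may have been left uncounted.

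Of the 3 receptors for the survival factors BAFF and APRIL, 2 were tested in OMD-/- against WT and 0 passed. Among all tested genes 29.4% passed in either direction, and so small a count cannot be told apart from that share. Tnfrsf13b, encoding TACI, was at 1.27 to 2.12 CPM in WT and at 1.37, 4.49 and 4.29 CPM in OMD-/-, a log2 difference of 1.10 ± 0.39 (SE, adjusted p = 0.0531, edgeR). Tnfrsf13c, encoding the BAFF receptor of mature B cells, was too low to be tested and stood at 0.0443 to 0.218 CPM in WT and at 0.141, 3.69 and 3.61 CPM in OMD-/-. In the 5 alternative fits that tested Tnfrsf13c it was higher by 3.87 to 4.97 (log2), passing in 4 of them (adjusted p from 1.52e-07 to 0.0748), and Tnfrsf13b passed in 5 of 18 alternatives (adjusted p from 0.000411 to 0.812). Tnfrsf17, encoding the plasma cell receptor BCMA, differed by 0.43 ± 0.78 (log2, SE, adjusted p = 0.711, edgeR), with OMD-/- replicate 1 at 0.0471 CPM, below all WT libraries. For Tnfrsf13b and Tnfrsf13c, OMD-/- replicate 1 was therefore within the WT range and replicates 2 and 3 were above it. In PRELP-/- these receptors lay at 1.19 to 2.0 CPM for Tnfrsf13b, 0.0568 to 0.643 CPM for Tnfrsf13c and 0.160 to 0.511 CPM for Tnfrsf17.

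The antibody genes themselves were not among the 37, but moved alongside them. The 264 immunoglobulin genes in the counts summed to 133, 132, 253 and 214 CPM in WT, to 624, 3371 and 3489 CPM in OMD-/- and to 28.1, 436 and 415 CPM in PRELP-/-. As for Jchain, OMD-/- replicates 2 and 3 were highest, OMD-/- replicate 1 next and PRELP-/- replicate 1 lowest.

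Of the 6 genes of the T cell receptor complex, 4 rose in OMD-/-, where 14.3% of all tested genes were higher. Cd3e was at 0.957, 1.96, 1.50 and 1.81 CPM in WT, at 1.65, 5.93 and 5.80 CPM in OMD-/-, and at 3.46, 3.28 and 2.66 CPM in PRELP-/-. Cd3d was at 0.678, 1.44, 1.33 and 1.19 CPM in WT, at 1.60, 3.69 and 3.47 CPM in OMD-/-, and at 2.5, 1.16 and 1.42 CPM in PRELP-/-. Cd3g was at 2.01, 2.71, 3.54 and 3.36 CPM in WT, at 3.67, 5.13 and 6.39 CPM in OMD-/-, and at 3.46, 3.20 and 2.66 CPM in PRELP-/-. These 3 CD3 chains rose in OMD-/- by 1.54 ± 0.42 (log2, SE, adjusted p = 0.0204, edgeR) for Cd3e, 1.36 ± 0.36 (adjusted p = 0.0168) for Cd3d and 0.82 ± 0.26 (adjusted p = 0.0377) for Cd3g, and replicate 1 was above all WT libraries for Cd3d and Cd3g but not for Cd3e.

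Trac, the constant segment of the receptor's alpha chain and thus a mark of alpha-beta T cells, was at 1.10, 1.79, 1.33 and 1.59 CPM in WT, at 1.04, 8.22 and 7.12 CPM in OMD-/-, and at 1.65, 1.92 and 1.84 CPM in PRELP-/-. Its rise in OMD-/- was 1.93 ± 0.56 (log2, SE, adjusted p = 0.0290, edgeR), yet replicate 1 was the lowest of the 10 libraries, and against WT on its own it gave -0.48 (adjusted p = 0.585). Trbc2, a constant segment of the beta chain, was at 0.538 to 2.17 CPM in WT and at 1.41, 3.77 and 3.61 CPM in OMD-/- (log2 difference 1.03 ± 0.48, adjusted p = 0.131), and is nearly identical to its neighbour Trbc1, so reads may have been divided between them. Cd247, the zeta chain that carries most of the receptor's signalling motifs, was at 0.785 to 1.64 CPM in WT and at 2.03, 1.53 and 2.51 CPM in OMD-/- (0.79 ± 0.32, adjusted p = 0.0899). Its exons share 3007 bases with Pou2f1 on the other strand, at 37.8 CPM on average over the libraries, and the strand setting of the counting is not given in the sources used here.

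All 7 coreceptor and costimulation genes had a fitted log2 fold change above 0 in OMD-/-. Of these 3 passed, where 14.3% of all tested genes were higher. Cd4 was at 3.85, 3.75, 4.78 and 3.14 CPM in WT, at 6.74, 16.0 and 16.8 CPM in OMD-/-, and at 1.87, 7.09 and 7.21 CPM in PRELP-/-. Cd8a, of cytotoxic T cells, was at 1.75, 2.05, 0.797 and 1.11 CPM in WT, at 0.377, 2.92 and 2.88 CPM in OMD-/-, and at 1.65, 0.841 and 0.597 CPM in PRELP-/-. Cd4 rose in OMD-/- by 1.77 ± 0.29 (log2, SE, adjusted p = 0.00186, edgeR), the smallest adjusted p of the 37 genes, whereas Cd8a differed by 0.53 ± 0.57 (adjusted p = 0.521) and Cd8b1, the other CD8 chain, by 0.57 ± 0.43 (adjusted p = 0.351). OMD-/- replicate 1 was above all WT libraries for Cd4 and below them all for Cd8a and Cd8b1, so that its CPM ratio of Cd4 to Cd8a was 17.9, against 1.83 to 6.00 in WT, 5.46 and 5.86 in OMD-/- replicates 2 and 3, and 1.14, 8.43 and 12.1 in PRELP-/-. Cd4 is also expressed by some macrophages and dendritic cells, and the summed myeloid markers were 444 to 541 CPM in WT and 524, 926 and 941 CPM in OMD-/-. Their part in the Cd4 level was not tested.

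Cd2, an adhesion receptor of lymphocytes listed here with the T cell genes, was at 0.717, 1.27, 1.24 and 0.752 CPM in WT, at 1.74, 5.34 and 4.98 CPM in OMD-/-, and at 1.19, 1.04 and 1.56 CPM in PRELP-/-. Cd5, a brake on receptor signalling, was at 0.498, 0.655, 0.974 and 0.575 CPM in WT, at 0.707, 3.09 and 2.37 CPM in OMD-/-, and at 0.568, 0.801 and 0.505 CPM in PRELP-/-. Cd2 rose by 2.04 ± 0.40 (log2, SE, adjusted p = 0.00374, edgeR), the largest fold change among the genes listed as T cell or cytotoxic, with all OMD-/- libraries above WT. Cd5 rose by 1.63 ± 0.47 (adjusted p = 0.0232) with replicate 1 inside the WT range. Whether T cells or other lymphocytes made the added Cd2 and Cd5 RNA was not tested. The costimulatory receptors did not pass in OMD-/-. Cd28 was at 1.40 to 1.99 CPM in WT and at 0.942, 4.03 and 3.88 CPM in OMD-/- (0.92 ± 0.42, log2, SE, adjusted p = 0.125). Icos, which marks activated and helper T cells, was at 0.841 to 1.83 CPM in WT and at 1.22, 1.61 and 1.69 CPM in OMD-/-, inside the WT range (0.22 ± 0.32, adjusted p = 0.640).

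Of the 3 genes of signalling proteins next to the receptor, 1 was higher in OMD-/-, where 14.3% of all tested genes were. With so few genes this count cannot be told apart from that share. Zap70, the kinase recruited to the phosphorylated receptor, was at 0.857, 1.40, 1.28 and 1.37 CPM in WT, at 1.41, 3.52 and 2.65 CPM in OMD-/-, and at 2.38, 1.96 and 1.61 CPM in PRELP-/-. It rose by 1.06 ± 0.34 (log2, SE, adjusted p = 0.0375, edgeR) in OMD-/-, where replicate 1 lay just above the highest WT library. Lck, the kinase bound to the coreceptors, was at 3.50 to 4.66 CPM in WT and at 3.11, 7.46 and 6.89 CPM in OMD-/- (0.59 ± 0.28, adjusted p = 0.135). Lat, the adaptor that ZAP70 phosphorylates, was at 1.61 to 2.05 CPM in WT and at 1.22, 2.92 and 1.87 CPM in OMD-/- (0.10 ± 0.31, adjusted p = 0.831).

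The remaining genes are a cytokine receptor, a cytokine, a regulatory factor and cytotoxic effectors. Ltb, the lymphotoxin chain that helps to organise lymphoid tissue, was at 1.41, 2.31, 2.92 and 2.30 CPM in WT, at 2.92, 10.3 and 8.77 CPM in OMD-/-, and at 6.59, 1.88 and 3.03 CPM in PRELP-/-, and rose in OMD-/- by 1.74 ± 0.40 (log2, SE, adjusted p = 0.00975, edgeR). Il7r, the receptor for interleukin-7, was at 3.50 to 4.42 CPM in WT and at 3.06, 8.56 and 9.91 CPM in OMD-/- (0.81 ± 0.33, adjusted p = 0.0894). Foxp3, the factor that defines regulatory T cells, was at 0.777, 0.218, 0.221 and 0.221 CPM in WT, at 0.377, 0.890 and 0.502 CPM in OMD-/-, and at 0.341, 0.160 and 0.413 CPM in PRELP-/-. The Foxp3 groups overlapped (0.59 ± 0.57, adjusted p = 0.466), and its exons share bases with Ppp1r3f and Flicr.

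Cytotoxic effectors did not pass in either knockout. Gzma, a granule protease, was at 1.20 to 2.08 CPM in WT and at 1.42 to 1.70 CPM in OMD-/-, a log2 difference of -0.00902 ± 0.28 (adjusted p = 0.985, edgeR), and was the only tested gene of the 37 whose fold change in OMD-/- was not above 0. Gzmb was at 0.531 to 0.974 CPM in WT and at 0.471, 2.5 and 1.87 CPM in OMD-/- (1.16 ± 0.49, adjusted p = 0.0969), and Nkg7, a granule membrane protein of NK cells and cytotoxic T cells, was at 1.13 to 1.90 CPM in WT and at 1.37, 3.26 and 2.92 CPM in OMD-/- (0.56 ± 0.33, adjusted p = 0.232). Nkg7 and Ltb were highest among the WT and PRELP-/- libraries in PRELP-/- replicate 1, at 4.83 and 6.59 CPM.

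**Figure D3:**
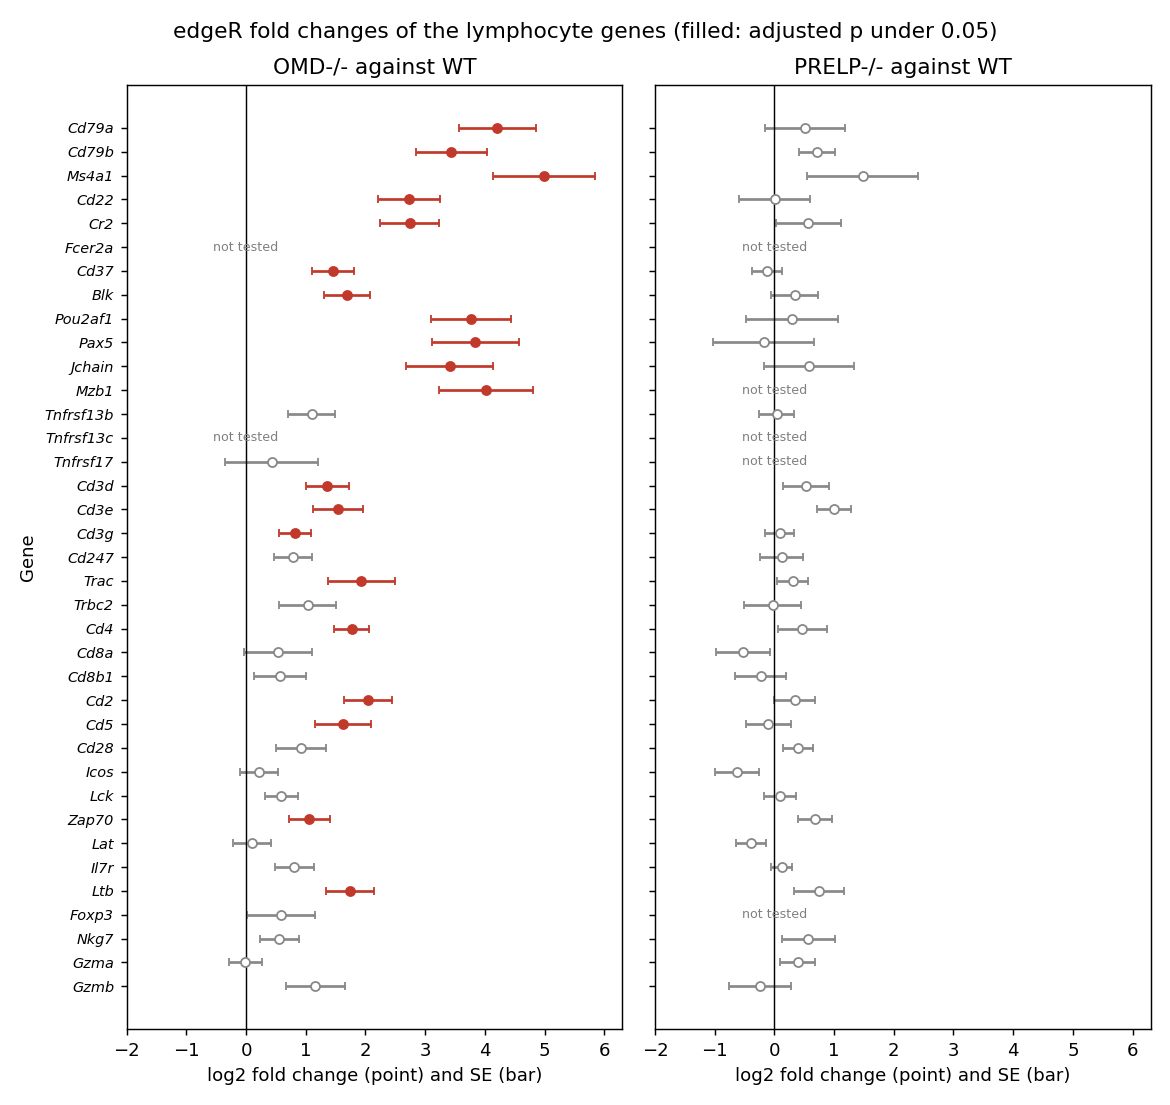
Fitted log2 fold change (point) and SE (bar) of each gene in OMD-/- against WT (left) and PRELP-/- against WT (right), from edgeR. Filled red points passed an adjusted p under 0.05: 20 genes on the left, all above 0, and 0 on the right; genes removed by the filter on low counts are marked as not tested.

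Over the 37 genes, tested or not, 16 had every OMD-/- library above every WT library (19.3% of all tested genes did) and 0 had every one below (19.6%). Of these 16, 11 were among the 15 B lineage genes and 5 among the 22 T cell genes. Summed CPM gave the same picture by library. The B lineage genes without Jchain summed to 10.9, 13.2, 13.6 and 10.5 CPM in WT, to 21.8, 114 and 112 CPM in OMD-/-, and to 9.65, 16.5 and 16.5 CPM in PRELP-/-. The T cell and cytotoxic genes summed to 34.6, 38.5, 40.7 and 38.8 CPM in WT, to 39.2, 104 and 100 CPM in OMD-/-, and to 52.9, 42.6 and 43.1 CPM in PRELP-/-. The ratio of the B sum to the T sum was thus 0.271 to 0.344 in WT, 0.555, 1.09 and 1.13 in OMD-/-, and 0.183, 0.388 and 0.383 in PRELP-/-, with every OMD-/- library above every WT and PRELP-/- library.

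**Figure D4:**
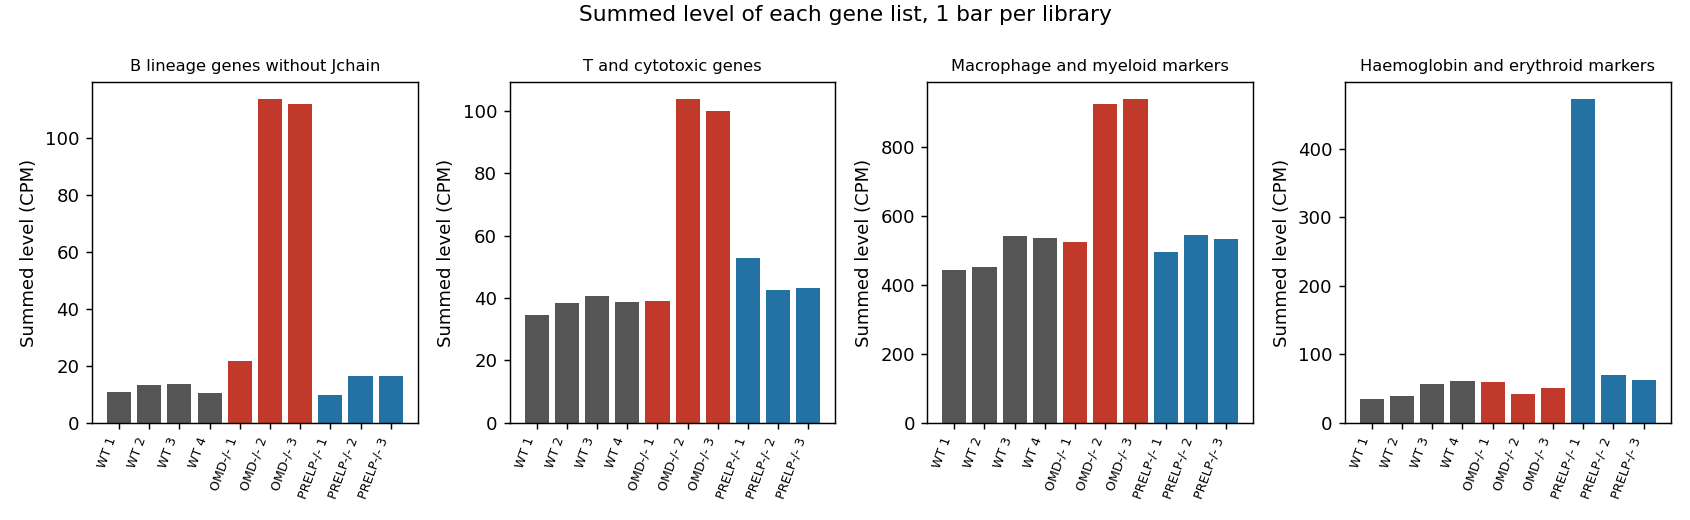
Summed level in CPM of the B lineage genes without Jchain, the T cell and cytotoxic genes, the macrophage and myeloid markers, and the haemoglobin and erythroid markers, with 1 bar per library (WT grey, OMD-/- red, PRELP-/- blue) and each axis starting at 0. OMD-/- replicates 2 and 3 reach 114 and 112 CPM in the B panel and 104 and 100 CPM in the T panel, and PRELP-/- replicate 1 alone reaches 473 CPM in the last panel.

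The same comparison with libraries left out or restricted gave a wide range of counts. Without OMD-/- replicate 1, 27 of 37 genes were higher (25.5% of all tested genes passed in either direction), without replicate 2, 11 of 35 (18.2%), and without replicate 3, 12 of 35 (17.2%). With the closest libraries summed, so that OMD-/- replicates 2 and 3 counted as 1, 4 of 36 passed (9.06% of all genes). In the 4 libraries with under 2 CPM of Y chromosome genes, WT replicates 3 and 4 against OMD-/- replicates 2 and 3, 32 of 37 were higher (53.7% of all genes passed). Both groups of that fit were pairs of close libraries (1.37 and 1.11), so it measured only the spread within these pairs. With the Y chromosome level as a covariate in all 7 libraries, 15 of 35 were higher (37.1% of all genes passed). The part of sex in the lymphocyte levels was not tested.

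Other genes of the same cells, taken from wider lists, were read beside the 37. These lists too were chosen with earlier results of these data known. Among all genes tested in OMD-/- against WT, 14.3% were higher and 15.1% lower. Of 13 further B lineage genes tested, 8 were higher in OMD-/- and 0 lower, among them Spib, a B cell transcription factor (log2 3.98, adjusted p = 0.00255, edgeR), Fcmr, the receptor for IgM (3.61, adjusted p = 0.000785), and Cd72 (1.56, adjusted p = 0.00606). Of 8 further plasma cell genes, 4 were higher, including Cd38 (1.03, adjusted p = 0.00361), while Xbp1, the master factor of antibody secretion, differed by 0.22 (adjusted p = 0.0985), Sdc1 by 0.17 (adjusted p = 0.280) and Fkbp11 by 0.55 (adjusted p = 0.121). These last 3 are also expressed by other secretory or epithelial cells. Of 26 further T lineage genes, 8 were higher and 1 lower. The higher ones included Il2rb (1.05, adjusted p = 0.00795), Lcp2 (1.16, adjusted p = 0.0158) and Thy1 (0.68, adjusted p = 0.0403). Thy1 was at 44.1 to 84.2 CPM in WT, where Cd3e was at 0.957 to 1.96 CPM, and at 94.0, 107 and 110 CPM in OMD-/-. Which cells made Thy1 was not tested. Of 9 further cytotoxic and NK genes, 0 passed in OMD-/- and 0 had an unadjusted p under 0.05, with Prf1, the pore-forming protein of killer cells, at 0.65 (adjusted p = 0.293), Klrd1 at -0.82 (adjusted p = 0.355), Klrk1 at -0.24 (adjusted p = 0.664) and Eomes at 0.28 (adjusted p = 0.703).

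Genes of other white cells and of lymphoid stroma differed in OMD-/- as well, where 14.3% of all tested genes were higher. Of 10 general leukocyte genes tested, 7 were higher in OMD-/-, among them Laptm5 (1.59, adjusted p = 0.00138, edgeR), Rac2 (1.63, adjusted p = 0.00433) and Arhgdib (0.60, adjusted p = 0.00119), but Ptprc, encoding CD45, differed by 0.82 (adjusted p = 0.180). Of 13 macrophage and myeloid markers, 9 were higher, among them C1qa (1.28, adjusted p = 0.000790), C1qc (0.95, adjusted p = 0.00161), Adgre1 (1.0, adjusted p = 0.00152) and Csf1r (1.13, adjusted p = 0.00179). As given above, their sum was raised in OMD-/- replicates 2 and 3 and within the WT range in replicate 1. Lyz2, the largest part of that sum, was at 159 CPM in replicate 1, against 179 to 243 CPM in WT. C1qa, C1qc, Adgre1 and Csf1r were each above all WT libraries in replicate 1 too. Of the 15 markers, tested or not, 7 had every OMD-/- library above every WT library (19.3% of all tested genes did).

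Few genes of lymph nodes and lymphoid follicles had enough counts to be tested, and of all tested genes 14.3% were higher in OMD-/-. Of 9 such genes 3 were tested and 2 were higher in OMD-/-, among them Cxcl13, the chemokine that draws B cells into follicles (2.0, adjusted p = 0.000874, edgeR), while Ccr7 differed by 0.73 (adjusted p = 0.159). Cxcl13 had 83, 70, 66 and 76 counts in WT, 146, 270 and 311 in OMD-/- and 37, 69 and 59 in PRELP-/-. Glycam1, made by lymph node venules, had 0 counts in all 4 WT libraries and in OMD-/- replicate 1, but 82 and 112 counts in OMD-/- replicates 2 and 3 and 0, 3 and 5 counts in PRELP-/-. Ccl19 and Ccl21a were at 0 counts in all 10 libraries. Counts of 0 do not show that a gene was silent, since how reads matching several genes were counted was not examined. Whether the 2 libraries held lymph node or follicle tissue was not tested.

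Markers of the bladder itself differed too, when 14.3% of all tested genes were higher in OMD-/- and 15.1% lower. In OMD-/- 3 of 7 urothelium markers were higher, among them Upk2 (0.52, adjusted p = 0.00654, edgeR), Upk1a (0.45, adjusted p = 0.0171) and Krt18 (0.35, adjusted p = 0.0312), with Krt5 at 0.43 (adjusted p = 0.0788). In the same comparison 3 of 5 fibroblast markers were higher, Col1a1 (1.58, adjusted p = 0.000141), Col1a2 (1.43, adjusted p = 2.56e-05) and Pdgfra (1.12, adjusted p = 0.000736), with Dcn at 0.33 (adjusted p = 0.115). Of 5 endothelium markers 0 passed, with Kdr at 0.88 (adjusted p = 0.0729), Vwf at 1.05 (adjusted p = 0.0894), Pecam1 at 0.83 (adjusted p = 0.101) and Cdh5 at 0.73 (adjusted p = 0.145). Of 5 smooth muscle markers 0 passed, with Des at -1.55 (adjusted p = 0.282), Myh11 at -1.12 (adjusted p = 0.329), Cnn1 at -1.64 (adjusted p = 0.455) and Tagln at -0.46 (adjusted p = 0.525). Of 5 blood markers 0 passed, with Hba-a1 at 1.0 (adjusted p = 0.0751), Hba-a2 at 0.48 (adjusted p = 0.171), Hbb-bt at -0.52 (adjusted p = 0.255) and Alas2 at 0.32 (adjusted p = 0.256), and the 5 fat cell markers were too low to be tested. Fibroblast markers summed to 6272 to 7070 CPM in WT and to 13417, 15891 and 16268 CPM in OMD-/-, so replicate 1 was close to replicates 2 and 3 in fibroblast genes and far from them in lymphocyte genes. The part of these shifts in the lymphocyte levels was not tested.

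The PRELP-/- bladder gave no gene past the threshold among the 32 tested against WT, by edgeR. At an unadjusted p under 0.05 there were 3 of 32, Cd3e, Cd79b and Zap70, when 4426 of all 16581 tested genes reached that level. These were also the 3 of 37 genes whose PRELP-/- libraries were all above WT (13.6% of all tested genes were), while 0 were all below (16.4%). The smallest adjusted p was that of Cd3e, where PRELP-/- exceeded WT by 1.0 ± 0.29 on the log2 scale (SE, adjusted p = 0.0696). Cd79b differed by 0.71 ± 0.30 (adjusted p = 0.174) and Zap70 by 0.68 ± 0.28 (adjusted p = 0.163). The other 29 lay between -0.63 ± 0.37 (Icos, adjusted p = 0.309) and 1.48 ± 0.93 (Ms4a1, adjusted p = 0.333), with Cd8a at -0.53 ± 0.45, Lat at -0.39 ± 0.25, Ltb at 0.75 ± 0.42 and Jchain at 0.58 ± 0.75. The median over the 32 genes was 0.31, against 0.0231 over all tested genes. DESeq2 called 1 gene higher, Cd3e, when 2547 of 19645 genes were called, and limma-voom with sample quality weights called 5 higher (Cd79a, Ms4a1, Jchain, Cd3e and Cd4) and 1 lower (Cd8b1), at 42.0% of all genes called.

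Within PRELP-/- the libraries disagreed on the B lineage. Replicate 1 was below all WT libraries for 7 of 15 B lineage genes and above for 2 (38.3% and 39.7% of all tested genes), with a median of 0.521 times the WT mean. Replicate 2 was above all WT libraries for 10 and below for 0 (30.2% and 30.3%), and replicate 3 above for 7 and below for 1 (29.2% and 29.8%), with medians of 1.63 and 1.51 times the WT mean. Without replicate 1, the library rich in haemoglobin RNA, 2 of 33 genes were higher, Ms4a1 (2.05 ± 0.62, adjusted p = 0.0457, edgeR) and Cd4 (0.89 ± 0.19, adjusted p = 0.0127), when 22.2% of all tested genes passed. For the T cell genes the medians were nearer to each other, at 1.22, 0.978 and 1.09 times the WT mean. Over all genes tested in PRELP-/- against WT, with every replicate kept, 1.40% were higher and 5.89% lower. In the wider lists 0 of 11 further B lineage, 0 of 8 plasma cell, 0 of 23 T lineage and 0 of 8 cytotoxic and NK genes passed, against 1 of 10 general leukocyte genes (Laptm5, 0.90, adjusted p = 0.0159) and 2 of 13 myeloid markers (C1qa, 0.80, adjusted p = 0.0179, and C1qc, 0.56, adjusted p = 0.0485). Upk2 (0.68, adjusted p = 0.0477), Col1a1 (1.31, adjusted p = 0.0263) and Col1a2 (1.13, adjusted p = 0.0397) were higher too, and 0 of 3 lymphoid stroma, 0 of 5 smooth muscle, 0 of 5 endothelium and 0 of 5 blood markers passed.

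The knockouts were also compared with each other. By edgeR 0 of 34 tested genes passed (smallest adjusted p 0.690), when 1 of 15805 genes did (0.00633%), and 17 had an unadjusted p under 0.05, all lower in PRELP-/- (3.04% of all genes were). The median log2 fold change of PRELP-/- against OMD-/- was -1.16, and 12 of 37 genes had every PRELP-/- library below every OMD-/- library (8.71% of all genes), while 0 had every one above (6.38%). The B lineage genes stood at a median of -2.72, with Cd79a at -3.70 ± 0.90 and Pax5 at -3.99 ± 1.01 (log2, SE, adjusted p = 0.690 for both), and the T cell genes at -0.78. The labels do not give the replicate numbers as pairs. With the replicate number as a block, 6 of 34 genes were lower in PRELP-/- (0.272% of all genes passed): Cd79a (adjusted p = 0.0122), Cd22 (0.0217), Pax5 (0.0248), Pou2af1 (0.0440), Ms4a1 (0.0441) and Jchain (0.0441). DESeq2 called 4 lower, Cd79b, Cd22, Fcer2a and Cd37 (0.441% of all genes called), and the voom fit 21 (6.39%). With the closest libraries summed 0 of 37 passed, as did 0.00% of all genes, and the median was -0.93. With OMD-/- replicates 2 and 3 left out the median was -0.0784 and 0 genes passed.

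Compared per kilobase of exon, the mean levels of the groups had different leading genes. In WT Jchain led at 3.97 CPM per kb, followed by Trbc2 at 2.14, Nkg7 at 1.87, Gzma at 1.60, Trac at 1.55 and Ltb at 1.48 CPM per kb, and no B cell surface gene but Cd37 (1.09 CPM per kb) was above 1. In OMD-/- Jchain was at 41.4, Cd79a at 9.02, Cd79b at 7.11, Trac at 5.84 and Ltb at 4.83 CPM per kb. In PRELP-/- Jchain was at 5.89, Nkg7 at 2.87, Ltb at 2.53, Trbc2 at 2.11 and Gzma at 2.11 CPM per kb, and Cd79a at 0.663 CPM per kb. These means hide libraries that differed several-fold: Cd79a was at 2.10, 12.4 and 12.6 CPM per kb in OMD-/- replicates 1 to 3, and Jchain at 0.564, 8.45 and 8.65 CPM per kb in PRELP-/-, where Nkg7 was at 5.28, 1.53 and 1.81 CPM per kb. Jchain led in every library but PRELP-/- replicate 1. Neighbours in the WT order, such as Nkg7, Gzma and Trac, differed by less than the spread of their WT libraries.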

How the data were processed

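Whole-number read counts for 55536 genes in each of 10 mouse bladder libraries were deposited by the authors, without normalization. The libraries were poly(A)-selected and strand-specific, with molecular identifiers. The submitters' processing notes name bcl2fastq, STAR 2.5.2b, featureCounts and DESeq2, and builds GRCm38 and hg38, while the count files' headers name HISAT2. The strand setting and any use of the identifiers are not given in the sources used here. Gene names came from GENCODE vM21 (GRCm38), which held all 55536 identifiers. Detection limits cover counting error only.

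Tests were run in R 4.3.3 by edgeR 4.0.16, with DESeq2 1.42.0 and limma 3.58.1 as alternatives. A comparison used only the libraries of the 2 groups it concerned, over all genes left by edgeR's filter on low counts (16647, 16581 and 15805 genes), with TMM scaling, robust two-sided quasi-likelihood tests and Benjamini-Hochberg adjustment at 0.05; the fit was tested on simulated data. Mzb1, Tnfrsf17 and Foxp3 met the filter in OMD-/- against WT and not in PRELP-/- against WT, so counts over tested genes are not counts over all 37. The 37 genes and the wider lists were chosen with earlier results of these data known. All 37 are named, those that passed with a value in every library. Of each wider list up to 4 genes are named by the smallest larger adjusted p over both knockouts against WT, and some of these are not reported here.

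Deviations of same-numbered libraries from their group means correlated at 0.303, 0.181 and 0.148 between PRELP-/- and OMD-/-. The labels do not pair the libraries, so the main fits were unpaired and the replicate block was an alternative, fitted without WT replicate 4. By median chi-square, OMD-/- replicate 1 was nearest to PRELP-/- replicate 2 (1.69) and stood at 17.9 from PRELP-/- replicate 1. Alternatives were other tools, scaling and filters, the replicate block, a Y chromosome covariate and libraries left out. A planned search of protein sequences was not run, and protein sequences were not used here. The deposited comparison tables hold the authors' own fold changes and p-values and were not used.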

Additional observations from a re-analysis of the deposited data

Results flagged for a closer look

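A library was looked at again where, within the 4 WT libraries, its gap to the nearest other was larger than Dixon's 95% limit, which chance alone gives in about 1 in 20 groups. This picked out 4 of the 37 genes. Cr2 was at 0.319 CPM in WT replicate 1, against 0.885 to 0.929 CPM in the other WT libraries. Foxp3 was at 0.777 CPM in the same library, against 0.218 to 0.221 CPM. Cd28 was at 1.99 CPM in WT replicate 4, against 1.40 to 1.46 CPM. Nkg7 was at 1.13 CPM in WT replicate 2, against 1.89 to 1.90 CPM. The groups of 3 knockout libraries were too small for this rule.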

How the results depend on the processing

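In OMD-/- against WT, the count of lymphocyte genes passing ranged from 11 (without OMD-/- replicate 2) to 27 (without OMD-/- replicate 1) when 1 library was left out, with medians of 1.16 to 1.83. It was 4 with the closest libraries summed, 0 with OMD-/- replicates 2 and 3 left out together (median 0.21, and Trac at -0.48) and 32 in the libraries with under 2 CPM of Y chromosome genes, all 3 chosen after seeing the data. The fit without those libraries assumes that the lone OMD-/- library varies like the WT libraries. All 20 genes still passed by DESeq2, by edgeR with RLE scaling and by the voom fit. With total counts Cd3g and Zap70 were lost, and with no filter Cd37 and Trac. The numbers did not pair the knockouts with WT (correlations from -0.0998 to 0.137). With the replicate block, which also left out WT replicate 4, 17 of the 20 passed, Cd79a, Cd22 and Jchain being lost. Whether the block or the missing library lost them was not tested. With the Y chromosome covariate Cd3e, Cd3g, Trac, Cd5 and Zap70 were lost.

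In PRELP-/- against WT the count was 1 by DESeq2, 6 by voom and 0 to 2 with 1 library left out, and the replicate block left it at 0. The median was 0.0944 with total counts and 0.17 to 0.35 with 1 library left out. In PRELP-/- against OMD-/- the count was 4 by DESeq2, 21 by voom, 6 with the replicate block and 0 to 3 with 1 library left out. The median was -0.19 with the Y chromosome covariate, -0.0784 with OMD-/- replicates 2 and 3 left out, and -1.54 to -0.87 with 1 library left out. A median was taken as moved where it changed by more than the SD of the library medians pooled over both groups (0.572, 0.130 and 0.592), a measure chosen after seeing that the SD within PRELP-/- alone was very small. The causes were not tested. Many of these genes had under 2 CPM in WT, where few counts limit what can be seen.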
